A study of Mus musculus with 30 samples.

Results

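The genes of glycolysis and of the response to low oxygen were followed in cultured mouse osteoclasts from Terc-/- and wild-type donors of different ages. The group holds 34 genes, taken as a fixed list of symbols that was chosen with earlier results of these data known. They were matched to the 50686 gene identifiers of the count files, and all 34 passed the filter on low counts. The group has a glycolysis arm of 21 genes, made of 16 enzymes, 2 regulators of phosphofructokinase and 3 transporters. It also has a hypoxia arm of 13 genes, made of the factor Hif1a, 2 oxygen sensors, 2 pyruvate dehydrogenase kinases and 8 targets. RNA was sequenced from 30 libraries in 10 groups of 3, to ask whether osteoclasts differ in expression with the age of the donor or without Terc, the RNA template of telomerase.

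All donors were C57BL/6J mice, and all cells were grown from macrophages derived from bone marrow with M-CSF and RANKL, the cytokines that drive osteoclast formation. The multinucleated cultures, harvested once big cells with several nuclei had formed, came from Terc-/- donors (KO) of 1 month and 6 months, each in 2 sets of libraries, and from wild-type donors (WT) of 1 month, 6 months and 20 months. The cultures harvested after 2 days came from WT donors of 20 months and 6 months. A KO set whose titles begin with 519 is called set 519 here and the other KO libraries are called unprefixed. WT donors of 1 month also have 2 sets, of which the one tagged D1gaiweiBP is called set D1, and the labels explain neither mark. The labels give no oxygen level, do not say whether the replicates of a group were separate animals or separate dishes, and describe no pooling, so p-values measure the spread between these libraries, which may be technical. They also give no day of harvest for the multinucleated cultures. Time in culture may therefore differ between those groups, and it cannot be told apart from age, genotype or set.

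Glycolysis splits glucose into pyruvate, which is reduced to lactate or passed to the mitochondria. The factor HIF1A is marked for breakdown by EGLN prolyl hydroxylases when oxygen is plentiful, and when it is stable it switches on genes for glucose uptake, glycolysis, vessel growth and mitochondrial turnover through a short DNA motif, the hypoxia response element. Osteoclasts use glycolysis and mitochondrial respiration to fuel differentiation and bone resorption, and HIF1A is known to promote osteoclast activity.

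The start regions of the members are shown first. Windows of 300 bases, reaching 250 bases before to 50 bases after the annotated start, were taken from RefSeq on build GRCm38.p6 and were found for 30 members, all but Slc2a3, Bnip3l, Ndrg1 and Ero1l. The letters searched were ACGTG and GCGTG on both strands, the core of the hypoxia response element, where ACGTG also lies within the E-box CACGTG. At least 1 match stood in 27 of the 30 members (90.0%), in 10 of 10 hypoxia genes and in 17 of 20 glycolysis genes, against 12628 of all 27025 genes with a window (46.73%). A gene with several annotated starts has several windows and was counted if any of them held a match. Hk1, Pfkm, Aldoa, Pkm, Pdk1 and Vegfa each had windows with and without a match. Counted by window, 14380 of all 32851 windows held a match (43.77%). The number of windows per gene was not made equal. The members were picked by pathway, with earlier results of these data known. All of them passed the filter on low counts, whereas the 27025 genes include many that did not. The shares therefore come from unlike sets of genes, and their difference was not tested. A match is a description of the letters and not a site of binding. The 4 windows below belong to members described library by library in the results, 3 hypoxia genes and the lactate exporter Slc16a3, with the matched letters in capitals, 5′ to 3′ on the strand of the gene.
Egln3, chr12:54203825-54204124, minus strand: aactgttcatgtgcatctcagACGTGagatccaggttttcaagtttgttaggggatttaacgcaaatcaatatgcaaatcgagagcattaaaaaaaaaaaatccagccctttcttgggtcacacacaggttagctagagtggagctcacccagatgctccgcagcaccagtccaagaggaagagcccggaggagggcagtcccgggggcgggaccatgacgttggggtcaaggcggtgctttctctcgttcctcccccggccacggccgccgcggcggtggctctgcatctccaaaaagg
Bnip3, chr7:138909457-138909756, minus strand: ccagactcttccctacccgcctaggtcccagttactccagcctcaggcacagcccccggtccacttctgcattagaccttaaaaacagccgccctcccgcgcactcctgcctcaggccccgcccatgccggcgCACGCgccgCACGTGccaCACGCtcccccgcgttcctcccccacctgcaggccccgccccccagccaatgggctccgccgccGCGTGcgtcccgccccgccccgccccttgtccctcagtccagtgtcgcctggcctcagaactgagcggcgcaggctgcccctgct
P4ha2, chr11:54100674-54100973, plus strand: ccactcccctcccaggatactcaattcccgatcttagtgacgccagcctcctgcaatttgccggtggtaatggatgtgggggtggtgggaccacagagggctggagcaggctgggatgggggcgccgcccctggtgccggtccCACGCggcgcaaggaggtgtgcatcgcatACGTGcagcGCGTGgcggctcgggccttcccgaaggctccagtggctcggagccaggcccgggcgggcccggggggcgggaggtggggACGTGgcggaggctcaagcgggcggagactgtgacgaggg
Slc16a3, chr11:120948817-120949116, plus strand: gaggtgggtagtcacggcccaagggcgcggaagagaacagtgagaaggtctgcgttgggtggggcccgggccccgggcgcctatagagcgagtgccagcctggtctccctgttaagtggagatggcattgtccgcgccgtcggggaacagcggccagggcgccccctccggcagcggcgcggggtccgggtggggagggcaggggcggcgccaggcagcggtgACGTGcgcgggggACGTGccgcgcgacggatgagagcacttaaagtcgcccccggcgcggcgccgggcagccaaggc
The Egln3 window held 1 match, that of Bnip3 held 5, that of P4ha2 held 4 and that of Slc16a3 held 2, where the palindrome CACGTG counts on both strands.

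Counts assigned to genes ranged from 4269798 to 25147975 per library, and the 6 libraries of set 519 were the shallowest, with 4269798 to 12987993. Levels are given as counts per 1000000 after TMM scaling of the libraries (CPM). No count fell on Terc in the 12 KO libraries, which limits it to 0.01617 CPM, but the 18 WT libraries held only 5 counts in 3 libraries, so this hardly checks the genotype. In set D1, Xist reached 848 to 937 CPM and Ddx3y had no count, whereas each of the other groups had Ddx3y at 60.4 CPM or more and Xist under 0.5 CPM, so a contrast with set D1 also compares the sexes. Another Y-linked gene, Eif2s3y, also had no count in set D1. It had 16.2 to 18.9 CPM in set 519 KO of 1 month and 19.8 to 21.1 CPM in unprefixed KO of 1 month. All remaining groups had 46.9 CPM or more, and the cause of this difference was not tested.

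The harvest label was checked with 11 osteoclast maturation markers such as Ctsk, the collagen-cutting protease of osteoclasts, and some libraries went against it. The summed level of the markers was 674 to 738 CPM in unprefixed KO of 1 month, 2479 to 2778 CPM in unprefixed KO of 6 months and 2378 to 2507 CPM in unprefixed WT of 1 month, all below the 3672 to 4857 CPM of the cultures harvested after 2 days. It was 7050 to 8268 CPM in set 519 KO of 1 month, 26590 to 27790 CPM in set 519 KO of 6 months, 44280 to 46720 CPM in set D1, 20850 to 22500 CPM in WT of 6 months and 23280 to 24930 CPM in WT of 20 months. The comparison of genotypes with the closest marker levels was therefore set 519 KO against WT at 6 months, and the contrasts of KO with WT at 1 age are given below for both sets. In these bulk libraries, fewer cells of a type and less RNA per cell cannot be told apart.

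**Figure D1:**
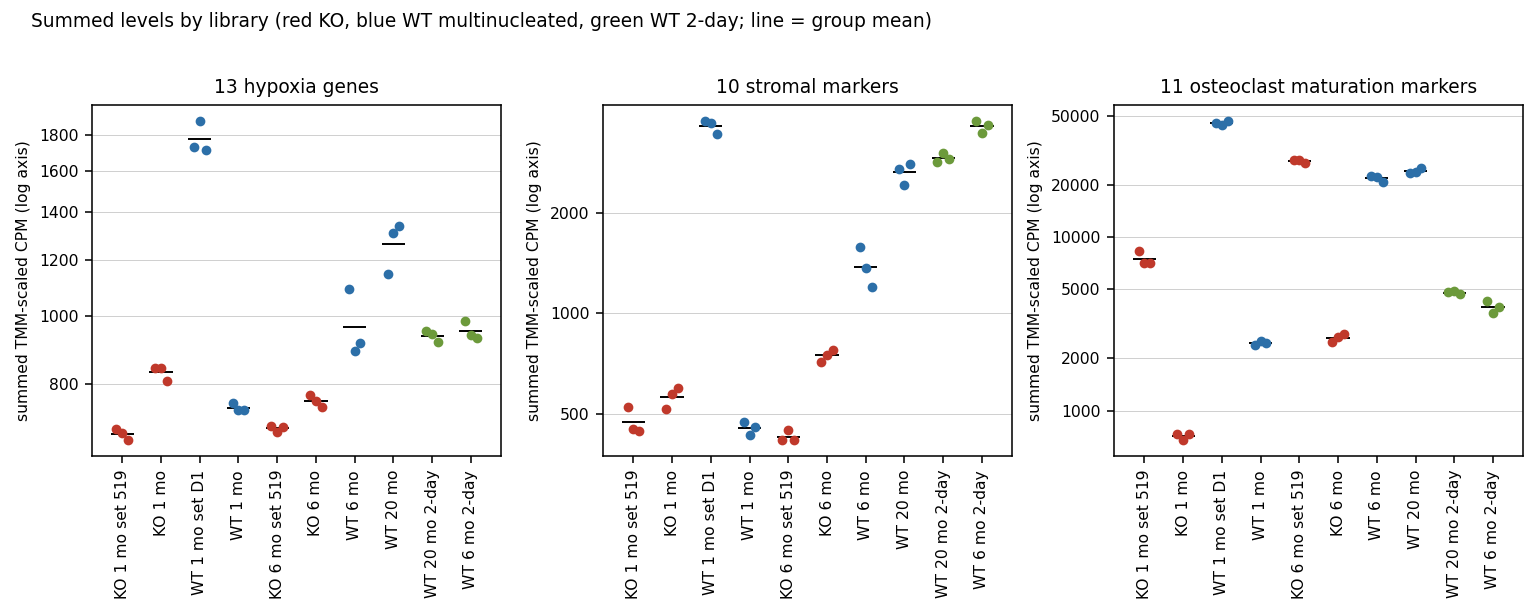
Summed level of the 13 hypoxia genes, of 10 stromal markers and of 11 osteoclast maturation markers in each of the 30 libraries, in TMM-scaled CPM on a log axis. Points are libraries and lines are group means. The hypoxia genes sum to 1715 to 1885 CPM in set D1 and to 667 to 699 CPM in both groups of set 519 KO.

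The 2 arms differed in how far they varied. From the lowest to the highest group mean, the glycolysis genes spanned a median of 1.92-fold (1.21- to 10.7-fold) and the hypoxia genes a median of 3.48-fold (1.77- to 19.6-fold). Set D1 had the highest mean for 9 of the 13 hypoxia genes and WT of 20 months for the other 4, namely Pdk3, Egln3, Ankrd37 and Ndrg1. Set 519 KO of 6 months had the lowest mean for 6 of them. For glycolysis the highest means were spread over 7 groups, with unprefixed KO of 1 month highest for 7 of 21 genes. WT of 20 months harvested after 2 days had the lowest mean for 8 of 21 glycolysis genes.

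The widest range belonged to Egln3, an oxygen-sensing prolyl hydroxylase that is itself a HIF target, at 30.2 ± 6.14 CPM in WT of 20 months and 1.55 ± 0.181 CPM in set 519 KO of 6 months (SD, n = 3 each). Among glycolysis genes it was Slc2a3, a high-affinity glucose transporter, with 7.0 ± 0.763 CPM in WT of 20 months after 2 days and 0.656 ± 0.143 CPM in set D1, its only group under 2 CPM. The narrowest were Pfkp, the platelet-type phosphofructokinase, among glycolysis genes and Egln1, the main oxygen sensor, among hypoxia genes.

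**Figure D2:**
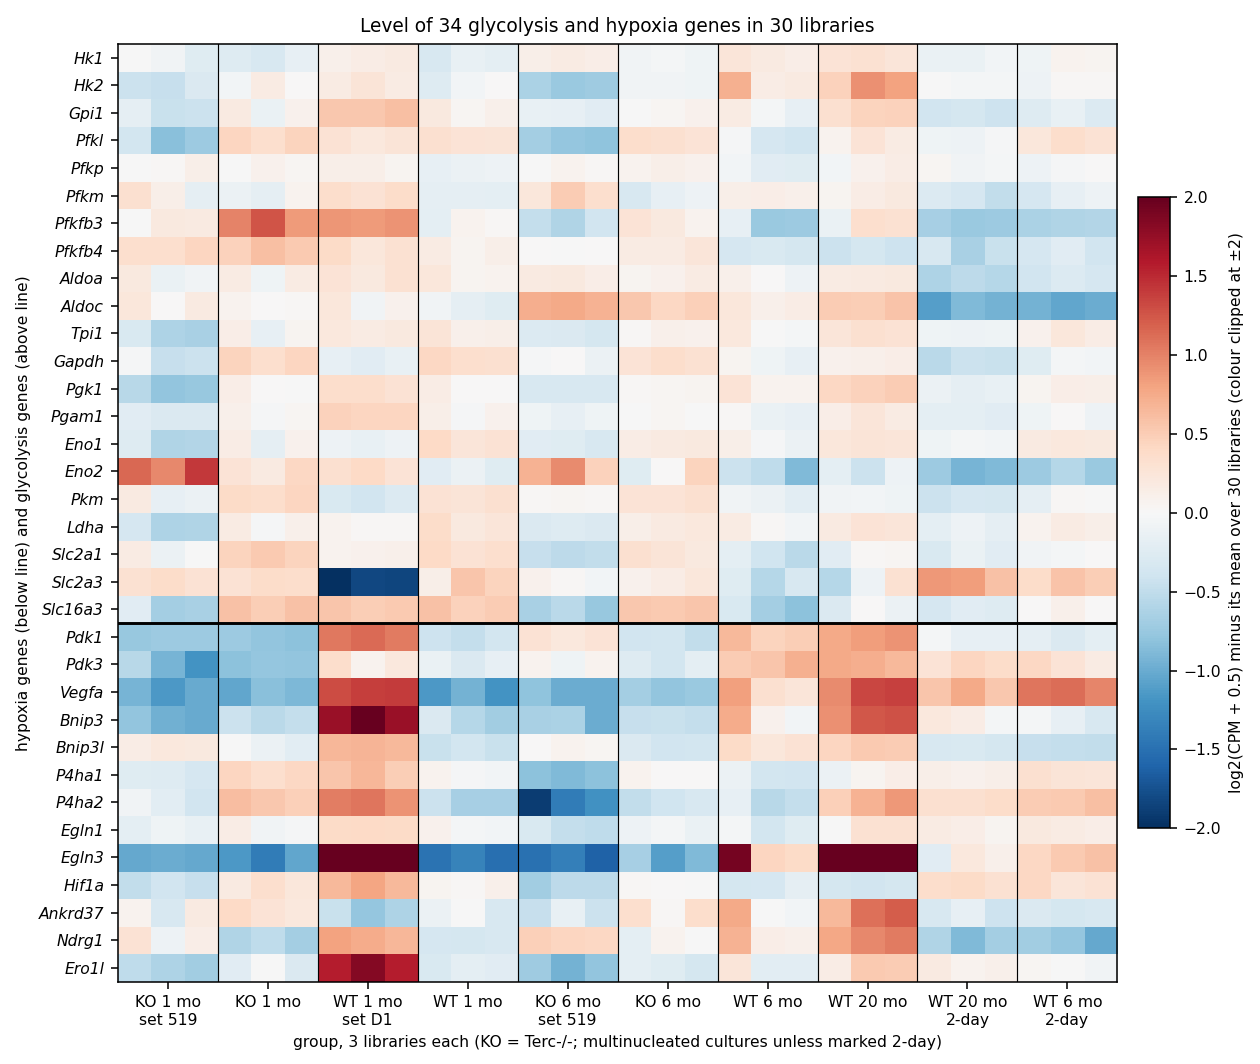
Level of each of the 34 genes (rows, 21 glycolysis genes above the line and 13 hypoxia genes below it) in each of the 30 libraries (columns, 3 per group), as log2(CPM + 0.5) minus its mean over all libraries. Set D1 is highest for 9 of 13 hypoxia genes, and most glycolysis rows stay pale.

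The first comparison asks how multinucleated WT cultures differed with the age of the donor. Multinucleated WT cultures of 20 months had higher levels of 24 of the 34 genes than those of 6 months, and none was lower. Over all genes tested, 7.39% were higher and 6.9% were lower (edgeR's quasi-likelihood test, Benjamini-Hochberg adjusted p under 0.05). The hypoxia arm gave 11 of 13 and the glycolysis arm 13 of 21, with median log2 fold changes of 0.45 and 0.27, where the median of all genes was -0.01. Osteoclast maturation markers changed little here, with 2 of 11 higher and 1 lower.

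Among the HIF targets, Egln3 had 23.1, 34.2 and 33.3 CPM in the 20-month libraries, against 21.1, 7.23 and 7.02 CPM in the 6-month libraries. The 6-month library labelled replicate 2 stood apart from the other 2 and just below the lowest 20-month library. The log2 fold change was 1.38 ± 0.21 (SE, adjusted p = 1.2e-05), and without that library it was 2.08 (adjusted p = 2.7e-12).

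P4ha2, a subunit of the enzyme that hydroxylates collagen, had 42.9, 50.1 and 56.0 CPM at 20 months, against 27.2, 20.6 and 21.8 CPM at 6 months. The groups did not overlap, and the log2 fold change was 1.10 ± 0.10 (SE, adjusted p = 1e-09). Vegfa, the main growth factor of blood vessels, had 92.0, 122 and 124 CPM at 20 months, against 84.5, 60.0 and 56.8 CPM at 6 months. Replicate 2 was again the highest 6-month library, and the change was 0.75 ± 0.10 (adjusted p = 2e-06).

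Bnip3, which marks mitochondria for removal, had 67.9, 85.3 and 87.0 CPM at 20 months, against 60.2, 38.0 and 34.5 CPM at 6 months, a change of 0.86 ± 0.13 (adjusted p = 7.6e-06). Its relative Bnip3l was also higher, by 0.19 ± 0.05 (adjusted p = 0.0097). Ankrd37, a small ankyrin-repeat protein known as a HIF target, changed by 0.80 ± 0.17, Ndrg1, a stress-response gene, by 0.61 ± 0.11 and Ero1l, an oxidase of the endoplasmic reticulum, by 0.45 ± 0.10. The 2 groups overlapped for Ankrd37 and Ero1l, where replicate 2 of 6 months was above the lowest 20-month library. Ankrd37 shares 22.7% of its exon bases with the opposite-strand gene Lrp2bp, and Bnip3 shares 22.3% with Gm45507, which had no count in any library. P4ha1, the other collagen hydroxylase subunit, and Egln1 rose by 0.31 ± 0.06 and 0.42 ± 0.08.

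Pdk1, a kinase that shuts pyruvate dehydrogenase, rose by 0.30 ± 0.05 (adjusted p = 0.00015), with 263, 280 and 292 CPM at 20 months, against 246, 213 and 220 CPM at 6 months. Its relative Pdk3 (0.12 ± 0.08, adjusted p = 0.41) and the factor itself, Hif1a (-0.08 ± 0.06, adjusted p = 0.41), did not pass the test. Hif1a RNA stood at 98.0, 95.7 and 97.8 CPM at 20 months, against 98.6, 98.8 and 111 CPM at 6 months.

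On the glycolysis side the widest changes were those of a regulator and a transporter. Pfkfb3, which makes the activator of phosphofructokinase, had 42.2, 58.9 and 57.4 CPM at 20 months, against 41.3, 27.7 and 27.9 CPM at 6 months (0.72 ± 0.12, adjusted p = 3.2e-05). Slc16a3, the lactate exporter MCT4, had 84.4, 104 and 95.7 CPM at 20 months, against 83.3, 64.0 and 58.6 CPM at 6 months (0.47 ± 0.09, adjusted p = 0.00044). In both genes the lowest 20-month library lay just above the highest 6-month library.

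The glucose transporter Slc2a1 rose by 0.32 ± 0.07, and the hexokinase Hk2 by 0.37 ± 0.10, although the groups overlapped for both. Gpi1, the isomerase of the second step, and Pfkl, the liver-type phosphofructokinase, each rose by 0.42, and Aldoc, a minor aldolase, by 0.37. The other enzymes that passed were Pfkp, Tpi1, Pgk1, Pgam1, Eno1 and Ldha, with log2 fold changes of 0.18 to 0.32. The calls of Hk2 and Ldha were lost when some single libraries were left out, with adjusted p up to 0.10 for Hk2 and up to 0.25 for Ldha.

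The other 8 glycolysis genes did not pass, among them Aldoa, Gapdh and Pkm, with log2 fold changes of 0.17, 0.16 and 0.07. Pkm, the pyruvate kinase, stood at 3550 ± 38.7 CPM at 20 months and 3392 ± 176 CPM at 6 months (SD, n = 3 each). Pkm shares 15.3% of its exon bases with Gm49759 on the same strand, which had 72558 counts over all libraries. The effect of this overlap on the Pkm level was not tested. Pfkfb4, the second regulator of phosphofructokinase measured, had -0.07 ± 0.07 (adjusted p = 0.59).

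Stromal markers moved with this result. The summed level of 10 such genes, among them collagen I, was 2700, 2421 and 2787 CPM at 20 months, against 1573, 1367 and 1196 CPM at 6 months, with 5 of 10 higher and Dcn lower. In the cultures harvested after 2 days the same sum was 2834 to 3010 CPM at 20 months and 3448 to 3758 CPM at 6 months, while the hypoxia genes summed to 917 to 952 CPM and 929 to 984 CPM, below the 1144 to 1340 CPM of multinucleated cultures of 20 months. The part of stromal RNA in the changes was not tested.

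The same ages were compared in WT cultures harvested after 2 days, and there the glycolysis genes went the other way. Of the 34 genes 11 were lower and 1 was higher at 20 than at 6 months, against 11.3% of all genes lower and 7.48% higher. Of the 11, 10 were glycolysis genes (10 of 21), led by Gapdh at -0.36 ± 0.07, Pfkl at -0.36 ± 0.08, Pkm at -0.32 ± 0.06, Slc16a3 at -0.32 ± 0.09 and Ldha, the lactate-forming subunit of lactate dehydrogenase, at -0.27 ± 0.06. Of the hypoxia genes, Vegfa fell by 0.44 on the log2 scale and Bnip3l rose by 0.16, while the other 11 did not pass, among them Pdk1 (0.10 ± 0.06), Bnip3 (0.28 ± 0.14) and Hif1a (0.03 ± 0.06). Nor did Hk2 (-0.01 ± 0.10), Pfkfb3 (-0.11 ± 0.12) or Slc2a1 (-0.18 ± 0.07, adjusted p = 0.076). When only these 2 groups were fitted, Bnip3 was called higher (0.30, adjusted p = 0.0067) and Slc2a1 lower (-0.16, adjusted p = 0.021). Both were also called with no filter on low counts (adjusted p = 0.0098 and 0.048). The calls of Slc16a3 and Bnip3l were lost without some single libraries. Of the markers, 7 of 11 for osteoclast maturation were higher and 5 of 10 stromal ones lower, and their part was not tested. The count of called genes was 6 without replicate 2 of 6 months or without replicate 1 of 20 months, and 19 when only these 2 groups were fitted.

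Pfkl had 115, 113 and 119 CPM at 20 months, against 141, 154 and 149 CPM at 6 months, with no overlap. Vegfa had 70.6, 81.0 and 69.4 CPM at 20 months, against 101, 104 and 94.1 CPM at 6 months, also with no overlap. Egln3 had 4.38, 6.17 and 5.67 CPM at 20 months, against 7.11, 7.78 and 8.12 CPM at 6 months, and its change of -0.49 ± 0.27 did not pass (adjusted p = 0.21). It was called lower when only these 2 groups were fitted (-0.47, adjusted p = 0.017) and with no filter on low counts (-0.50, adjusted p = 0.0081). In these 3 genes every 20-month library lay below every 6-month library in cultures of 2 days and above every one in multinucleated cultures.

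Of the 34 genes, 8 were called higher with age in multinucleated cultures and lower with age in cultures of 2 days, which is 8 of the 24 and 8 of the 11, against 2.06% of all genes tested (315 of 15310) with the same pair of calls. They are Pfkl, Tpi1, Pgk1, Pgam1, Eno1, Ldha, Slc16a3 and Vegfa. The difference itself was tested as an interaction, the change from 2 days to multinucleated cultures at 20 months minus that at 6 months. It was positive for 21 of the 34 genes and negative for none, against 7.52% and 4.86% of all genes, with 14 glycolysis genes and 7 hypoxia genes. The largest values were 1.87 ± 0.34 for Egln3 (2.58 without replicate 2 of 6 months), 1.31 ± 0.14 for P4ha2, 1.19 ± 0.14 for Vegfa, 0.83 ± 0.17 for Pfkfb3 and 0.78 ± 0.13 for Slc16a3 (log2, ± SE). In the same interaction 6 of 10 stromal markers were positive and none negative (median 1.18), and 5 of 11 osteoclast maturation markers were negative and none positive. Their part in the interaction of the 34 genes was not tested.

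**Figure D3:**
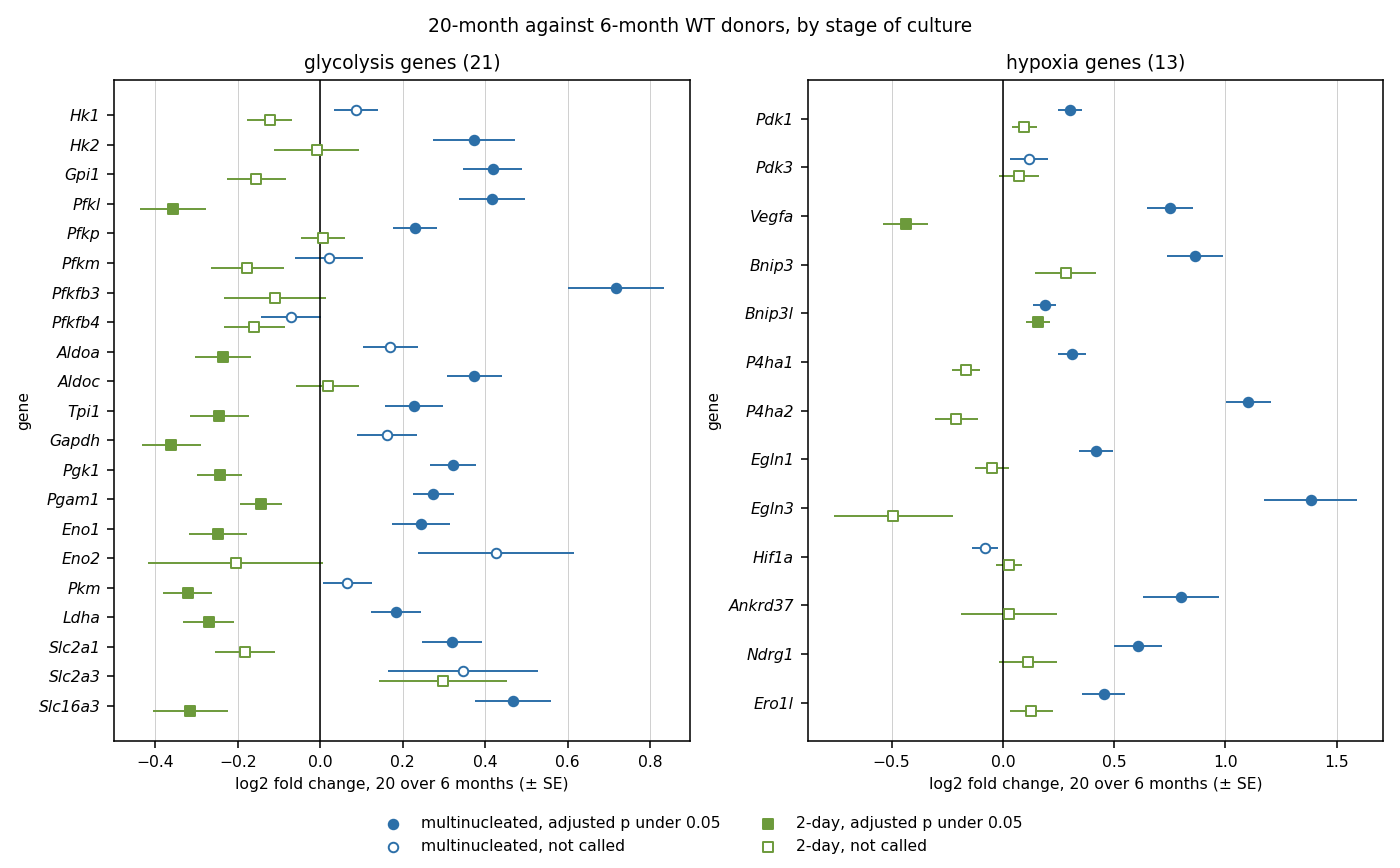
Log2 fold change of 20 over 6 months in WT donors (x axis, bars are SE) for each of the 34 genes, in multinucleated cultures (circles) and in cultures of 2 days (squares), with filled symbols for adjusted p under 0.05. In multinucleated cultures 24 genes are called and all lie right of 0, and in cultures of 2 days 11 called genes lie left of 0 and 1 right of it.

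Set side by side by stage, multinucleated cultures of 20 months had 26 genes higher and 2 lower than cultures of 2 days, against 25.4% of all genes higher and 26.9% lower. At 6 months 13 were higher and 11 lower, against 23.4% and 27.4%. All 11 osteoclast maturation markers were higher at both ages. Of 10 stromal markers, 2 were higher and 4 lower at 20 months (median -0.12), and 1 was higher and 7 lower at 6 months (median -1.40), while of 4 endothelial markers tested 4 were lower at 20 months and 1 at 6 months. The part of these shifts was not tested. Egln3 rose by 2.47 ± 0.23 at 20 months. At 6 months its 0.59 ± 0.24 (adjusted p = 0.037) turned to -0.11 without replicate 2 of the multinucleated group, and the calls of Hk2, Ankrd37 and Bnip3 were lost there too. Ndrg1 rose by 1.69 ± 0.12 at 20 months and 1.19 ± 0.12 at 6 months, and Aldoc by 1.51 ± 0.07 and 1.16 ± 0.07. Pdk1 rose by 0.96 ± 0.06 and 0.76 ± 0.06, and Bnip3l by 0.82 ± 0.05 and 0.79 ± 0.05.

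Hif1a itself was lower in multinucleated cultures at both ages. It had 98.0, 95.7 and 97.8 CPM in multinucleated cultures of 20 months, against 161, 164 and 154 CPM after 2 days, and its log2 fold changes were -0.72 ± 0.06 at 20 months and -0.61 ± 0.06 at 6 months (adjusted p = 1.7e-12 and 6.8e-11). The groups did not overlap at either age. Slc2a3 was also lower at both ages, by -0.91 ± 0.16 and -0.96 ± 0.17. Vegfa was higher at 20 months (0.61 ± 0.10) and lower at 6 months (-0.58 ± 0.10), and P4ha2 likewise (0.36 ± 0.10 and -0.95 ± 0.10). Of the glycolysis genes, Pfkfb3, Gpi1, Hk2, Ldha and Pkm rose at 20 months, by 0.91, 0.79, 0.77, 0.39 and 0.31, and at 6 months Pfkl, Slc16a3 and Slc2a1 fell, by 0.53, 0.64 and 0.34 on the log2 scale. Slc2a1 did not pass at 20 months, nor did Pfkfb3, Ldha and Pkm at 6 months.

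The second question was how KO and WT cultures differed at a given age. At 6 months, set 519 KO cultures had lower levels of 12 of the 13 hypoxia genes than WT, and none was higher, while 25.9% of all genes were lower and 25.7% were higher. Glycolysis genes were split, with 7 higher and 6 lower of 21. In the unprefixed KO cultures of the same age, 7 of 13 hypoxia genes were lower and 2 were higher, and 12 of 21 glycolysis genes were higher and 3 lower, against 29.5% of all genes lower and 30.5% higher. The 2 comparisons share the 3 WT libraries, so they are not independent of each other. Set 519 holds only KO libraries, so in its contrasts with WT the genotype, the set and its lower depth cannot be told apart.

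Egln3 had 1.54, 1.73 and 1.37 CPM in set 519 KO, and 3.13, 2.18 and 2.63 CPM in unprefixed KO, against 21.1, 7.23 and 7.02 CPM in WT. Every KO library was below every WT library. The log2 fold change was -2.94 ± 0.38 in set 519 and -2.13 ± 0.27 in unprefixed KO (adjusted p = 5.5e-08 and 3.1e-08). Without WT replicate 2 the values were -2.24 and -1.43, with adjusted p of 1.8e-09 and 2.1e-08.

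Vegfa had 27.0, 23.7 and 23.8 CPM in set 519 KO, and 29.8, 27.4 and 28.4 CPM in unprefixed KO, against 84.5, 60.0 and 56.8 CPM in WT. The KO libraries lay within a narrow band far below WT, and the changes were -1.42 ± 0.12 and -1.23 ± 0.11. Bnip3 had 22.7, 22.8 and 17.7 CPM in set 519 KO, and 26.0, 26.1 and 25.5 CPM in unprefixed KO, against 60.2, 38.0 and 34.5 CPM in WT, with changes of -1.08 ± 0.16 and -0.77 ± 0.14. Bnip3l fell by 0.27 in set 519 and by 0.65 in unprefixed KO.

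The kinases of pyruvate dehydrogenase were lower as well. Pdk1 had 190, 180 and 189 CPM in set 519 KO, and 120, 120 and 111 CPM in unprefixed KO, against 246, 213 and 220 CPM in WT. Neither KO set overlapped WT, and the change was -0.28 ± 0.06 in set 519 and -0.95 ± 0.06 in unprefixed KO. For Pdk3 it was -0.58 ± 0.10 and -0.90 ± 0.09.

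Other hypoxia genes depended on the set. P4ha2 had 7.87, 11.2 and 13 CPM in set 519 KO, and 21.5, 23.1 and 24.4 CPM in unprefixed KO, against 27.2, 20.6 and 21.8 CPM in WT. It fell in set 519 (-1.12 ± 0.14) and overlapped WT in unprefixed KO (-0.01 ± 0.10, adjusted p = 0.95). Hif1a fell in set 519 (-0.30 ± 0.06) and rose in unprefixed KO (0.30 ± 0.06), and so did P4ha1 (-0.56 ± 0.07 and 0.32 ± 0.06). Ankrd37, Ero1l and Egln1 fell in set 519, by 0.72, 0.75 and 0.21 on the log2 scale, and did not pass in unprefixed KO, whereas Ndrg1 fell in unprefixed KO by 0.38 and did not pass in set 519.

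In glycolysis, Hk2 was lower in KO, with 46.5, 42.7 and 43.9 CPM in set 519 KO and 68.5, 68.8 and 68.3 CPM in unprefixed KO, against 119, 80.2 and 81.5 CPM in WT. All KO libraries were below all WT libraries, and the changes were -1.07 ± 0.11 and -0.44 ± 0.10. Eno2, the neuronal enolase and a rare isoform here, was higher, by 1.43 ± 0.19 in set 519 and 0.81 ± 0.18 in unprefixed KO. Aldoc was higher by 0.58 ± 0.07 and 0.33 ± 0.07, and Pfkfb4 by 0.34 ± 0.08 and 0.53 ± 0.07.

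Slc16a3 separated the sets most. It had 65.8, 70.8 and 60.7 CPM in set 519 KO, and 151, 149 and 153 CPM in unprefixed KO, against 83.3, 64.0 and 58.6 CPM in WT. Unprefixed KO lay far above WT (1.14 ± 0.09, adjusted p = 6.7e-13), while set 519 overlapped it (-0.07 ± 0.10, adjusted p = 0.59). Pfkl was higher in unprefixed KO (0.56 ± 0.08) and lower in set 519 (-0.51 ± 0.09). Slc2a1 (0.63 ± 0.07) and Pfkfb3 (0.71 ± 0.12) were higher in unprefixed KO, and in set 519 they had -0.12 ± 0.08 and 0.06 ± 0.13, which did not pass.

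The enzymes Pgk1, Tpi1, Eno1 and Ldha fell in set 519 KO, by 0.46, 0.36, 0.26 and 0.33 on the log2 scale. In unprefixed KO, Pgk1, Tpi1 and Ldha did not pass and Eno1 rose by 0.18. Pkm was higher by 0.17 in set 519, a call that was lost without WT replicate 4 (adjusted p = 0.13), and by 0.43 in unprefixed KO.

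**Figure D4:**
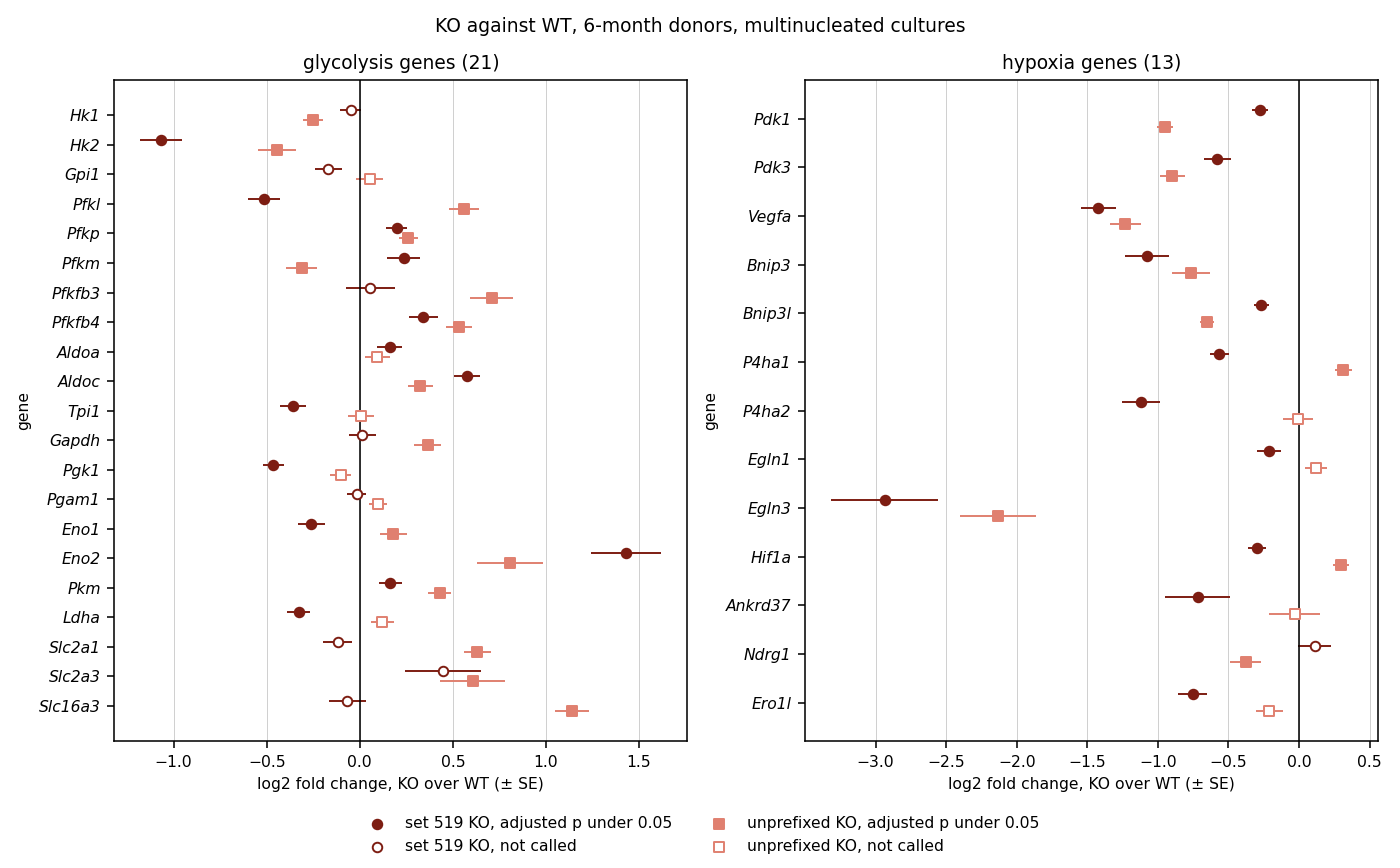
Log2 fold change of KO over WT at 6 months in multinucleated cultures (x axis, bars are SE) for the 34 genes, in set 519 (circles) and unprefixed KO (squares), with filled symbols for adjusted p under 0.05. Of the 13 hypoxia genes 12 are called left of 0 in set 519 and 7 in unprefixed KO, and Slc16a3 stands at 1.14 in unprefixed KO and -0.07 in set 519.

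Markers of other cells moved with the genotype at 6 months. The stromal sum was 417 to 447 CPM in set 519 KO and 716 to 777 CPM in unprefixed KO, against 1196 to 1573 CPM in WT, with 8 of 10 markers lower and 1 higher in either set. The macrophage sum was 20120 to 20250 CPM in set 519 KO and 26560 to 27160 CPM in unprefixed KO, against 11190 to 11320 CPM in WT. Osteoclast maturation markers were 5 of 11 higher and 3 lower in set 519, and all 11 lower in unprefixed KO. The neutrophil sum was 5.02 to 5.81 CPM in set 519 KO and 28.5 to 39.0 CPM in unprefixed KO, against 2.52 to 3.39 CPM in WT, and the endothelial sum was at most 29.3 CPM, the lymphoid sum at most 0.919 CPM and the erythroid sum at most 0.633 CPM in any library. The part of these shifts in the fall of the hypoxia genes was not tested.

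The sets also differed from each other under the same genotype and age label. At 6 months, set 519 KO had 8 genes higher and 19 lower than unprefixed KO, against 22.6% and 26.5% of all genes, with Slc16a3 at -1.21 ± 0.10, Pfkl at -1.07 ± 0.09, P4ha2 at -1.11, P4ha1 at -0.88 and Hif1a at -0.59, and with Eno2 at 0.62. At 1 month, 4 were higher and 18 lower, against 21.9% and 28.2%, with Slc16a3 at -1.07 ± 0.10, Pfkl at -1.05 ± 0.09, Pfkfb3 at -0.92 ± 0.12, P4ha2 at -0.75, P4ha1 at -0.67 and Hif1a at -0.69, and with Eno2 at 0.90. All 11 osteoclast maturation markers were higher in set 519 at both ages.

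At 1 month the comparison of genotypes hung on which sets were used. Against unprefixed WT, unprefixed KO had 10 of 34 genes higher and 4 lower, against 20.7% and 20.8% of all genes, and set 519 KO had 8 higher and 18 lower, against 27.2% and 29.8%. These comparisons share their WT libraries. In unprefixed KO all 11 osteoclast maturation markers were lower, and 9 of 10 macrophage and 7 of 10 stromal markers were higher. In set 519 KO, 7 of 11 osteoclast markers were higher and 1 lower, 3 of 10 macrophage markers were higher and 5 lower, and 2 of 10 stromal markers were higher. The part of these shifts was not tested. Egln3 had 2.31, 2.37 and 2.34 CPM in set 519 KO and 2.09, 1.68 and 2.30 CPM in unprefixed KO, against 1.57, 1.76 and 1.51 CPM in WT, and its changes of 0.54 ± 0.49 and 0.34 ± 0.40 did not pass (adjusted p = 0.36 and 0.54).

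Vegfa stood at 21.4 to 25.0 CPM in set 519 KO and 23.0 to 26.5 CPM in unprefixed KO, against 20.6 to 24.5 CPM in WT, and the groups overlapped. Bnip3 fell by 0.41 in set 519 KO, a call that was lost without some single libraries (adjusted p up to 0.17), and had 0.03 ± 0.14 in unprefixed KO. The genes that rose in unprefixed KO were led by P4ha2, with 47.2, 44.4 and 42.6 CPM in KO, against 22.7, 19.2 and 19.1 CPM in WT (1.14 ± 0.10), and Pfkfb3, with 93.2, 112 and 84.4 CPM in KO, against 40.3, 48.7 and 47.2 CPM in WT (1.08 ± 0.11). Neither overlapped WT. In set 519 KO, P4ha2 was higher by 0.39 ± 0.12 and Pfkfb3 had 0.17 ± 0.12, which did not pass. In unprefixed KO, Eno2, Ankrd37, Pfkfb4, P4ha1, Bnip3l and Aldoc were also higher, by 0.55, 0.50, 0.42, 0.40, 0.31 and 0.20, and the calls of Ankrd37 and Aldoc were lost without some single libraries (adjusted p up to 0.14 and 0.11).

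In both sets at 1 month, Pdk1 and Pdk3 were lower than in WT, with changes of -0.32 ± 0.06 and -0.68 ± 0.12 in set 519 and -0.36 ± 0.06 and -0.63 ± 0.10 in unprefixed KO. The glycolysis arm of set 519 KO had 12 of 21 genes lower, led by Slc16a3 at -1.03 ± 0.10, Pfkl at -0.92 ± 0.09, Eno1 at -0.78 ± 0.07, Ldha at -0.78 ± 0.06 and Pgk1 at -0.75 ± 0.06, and Eno2 higher by 1.45 ± 0.17. Unprefixed KO had 2 of 21 lower, Eno1 at -0.28 ± 0.07 and Ldha at -0.18 ± 0.06, and the call of Ldha was lost without 1 of 2 libraries (adjusted p up to 0.11). Hif1a fell in set 519 KO (-0.50 ± 0.06) and rose in unprefixed KO (0.19 ± 0.06), where the call was lost without KO replicate 2 (adjusted p = 0.055). Slc2a1, Pkm and Hk2 fell in set 519 KO, by 0.33, 0.31 and 0.31 on the log2 scale, and did not pass in unprefixed KO. The call of Hk2 was lost without some single libraries (adjusted p up to 0.10), and Bnip3l and Ndrg1 were higher in set 519 KO by 0.61 and 0.43, the call of Ndrg1 being lost without KO replicate 2 (adjusted p = 0.06).

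Against set D1, the other WT set of 1 month, 12 of 13 hypoxia genes were lower in either KO set. Over the 34 genes, 4 were higher and 25 lower in set 519 KO, against 31.1% and 31.2% of all genes, and 6 were higher and 19 lower in unprefixed KO, against 38.2% and 35.5%. The only hypoxia gene that was higher was Ankrd37, by 0.59 ± 0.26 in set 519 KO and 1.02 ± 0.21 in unprefixed KO. Egln3 changed by -3.44 ± 0.33 and -3.64 ± 0.28, Bnip3 by -2.77 ± 0.16 and -2.32 ± 0.13, and Vegfa by -2.43 ± 0.13 and -2.31 ± 0.11. Ero1l changed by -2.27 ± 0.11 and -1.85 ± 0.10, Pdk1 by -1.82 ± 0.06 and -1.86 ± 0.06, and Hif1a by -1.14 ± 0.06 and -0.45 ± 0.06. In glycolysis, Slc2a3 was higher by 2.96 in either set and Pkm by 0.29 ± 0.06 and 0.71 ± 0.06, while Gpi1 was lower, with -0.91 ± 0.07 and -0.50 ± 0.07. Hk2, Ldha, Pfkfb3 and Slc16a3 were lower in set 519 KO, with log2 fold changes of -0.60, -0.55, -0.75 and -1.04, and did not pass in unprefixed KO. Slc2a1 was higher in unprefixed KO (0.39 ± 0.07) and did not pass in set 519 KO. All 11 osteoclast maturation markers were lower in either KO set, and 8 of 10 stromal markers were lower in set 519 KO and 9 of 10 in unprefixed KO.

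The 2 WT sets of 1 month also differed from each other. Set D1 had 23 of 34 genes higher and 7 lower than unprefixed WT, against 37.5% and 36.9% of all genes, and 12 of 13 hypoxia genes were higher. Egln3 had 23.8, 27.9 and 25.2 CPM in set D1, against 1.57, 1.76 and 1.51 CPM in unprefixed WT, a 15.8-fold difference, and Vegfa had 119, 126 and 127 CPM, against 21.3, 24.5 and 20.6 CPM, a 5.60-fold difference. Ero1l and Pdk1 were 3.76- and 2.82-fold higher. Slc2a3 was the gene that went furthest down, with 0.491, 0.747 and 0.730 CPM in set D1, against 4.26, 6.01 and 5.49 CPM in unprefixed WT (-3.02 ± 0.23). Bnip3, P4ha2, Pfkfb3 and Hif1a were higher by 2.35, 1.61, 0.92 and 0.64, and Pkm, Gapdh, Slc2a1 and Ldha were lower, with -0.60, -0.54, -0.26 and -0.23.

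In that contrast 10 of 11 osteoclast maturation markers and 9 of 10 stromal markers were higher in set D1 too, and the stromal sum was 3440 to 3757 CPM, against 434 to 473 CPM in unprefixed WT. Sex, marker levels and the set cannot be told apart in it. Pgk1 and Pdk3 lie on the X chromosome and were higher by 0.28 ± 0.06 and 0.43 ± 0.09.

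Over the 3 ages of unprefixed multinucleated WT, Egln3 averaged 1.62 ± 0.132 CPM at 1 month, 11.8 ± 8.09 CPM at 6 months and 30.2 ± 6.14 CPM at 20 months (SD, n = 3 each). Vegfa averaged 22.1 ± 2.10, 67.1 ± 15.1 and 113 ± 17.9 CPM at those ages, Bnip3 25.0 ± 3.84, 44.2 ± 13.9 and 80.1 ± 10.6 CPM, and Pdk1 117 ± 4.68, 226 ± 17.1 and 279 ± 14.7 CPM. Each of these 4 genes was higher at each older age in a called test. That course holds only with unprefixed WT as the 1-month group. In set D1, the other WT set of 1 month, Vegfa, Bnip3 and Pdk1 averaged 124, 128 and 330 CPM, above their means at 20 months. Every set D1 library also had more Egln3 than every WT library of 6 months. Of 34 genes, 12 were higher and 15 lower at 6 than at 1 month, against 31.2% and 32.5% of all genes, and 19 were higher and 7 lower at 20 than at 1 month, against 34.2% and 34.4%. The steps from 1 month go with a change of marker level, since all 11 osteoclast maturation markers and 8 of 10 stromal markers (median 1.83) were higher at 6 than at 1 month, and 7 of 10 macrophage markers were lower and 1 higher. At 20 against 1 month, 11 of 11 osteoclast and 8 of 10 stromal markers (median 2.65) were higher, and 7 of 10 macrophage markers were lower and 2 higher. The part of these shifts was not tested. Between 1 and 20 months, the log2 fold changes were 4.22 ± 0.27 for Egln3, 2.35 ± 0.11 for Vegfa, 1.68 ± 0.13 for Bnip3, 1.29 ± 0.10 for P4ha2 and 0.84 ± 0.10 for Hk2.

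Slc16a3 took another course, with 148 ± 6.51 CPM at 1 month, 68.6 ± 13 CPM at 6 months and 94.7 ± 9.76 CPM at 20 months, and Slc2a1 had 146 ± 5.88, 88.7 ± 10.7 and 111 ± 11.1 CPM. Both were lower at 6 than at 1 month, by -1.11 ± 0.09 and -0.72 ± 0.07. Hif1a fell from 1 month on, with 130 ± 3.50, 103 ± 6.92 and 97.2 ± 1.27 CPM, and only the step between 6 and 20 months did not pass. Pfkl, Pfkfb3, Pkm and Ldha were also lower at 6 than at 1 month, with log2 fold changes of -0.52, -0.50, -0.42 and -0.22, and Hk2 was higher by 0.47 ± 0.10.

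The same ages were compared within the KO cultures. Unprefixed KO had 5 genes higher and 7 lower at 6 than at 1 month, against 19.7% and 17.8% of all genes, and set 519 KO had 11 higher and 8 lower, against 19.2% and 13.2%. Egln3, Vegfa and Bnip3 did not pass in either set. In set 519 KO and unprefixed KO, P4ha2 was lower at 6 months, by -1.32 ± 0.15 and -0.96 ± 0.10, and Pdk1 was higher, by 1.00 ± 0.06 and 0.37 ± 0.06. Pfkfb3 was lower (-0.61 ± 0.14 and -0.87 ± 0.11), as was Slc2a1 (-0.50 ± 0.08 and -0.21 ± 0.07, a call lost in unprefixed KO without its 6-month replicate 3), and Aldoc was higher (0.61 ± 0.07 and 0.45 ± 0.07). Ldha rose in set 519 KO (0.23 ± 0.06), Hif1a fell in unprefixed KO (-0.24 ± 0.06), and Hk2 and Pkm passed in neither. For Hk2 in set 519 KO this depended on the setting. It was called lower with DESeq2 (-0.36, adjusted p = 0.017) and with DESeq2's size factors in edgeR (-0.35, adjusted p = 0.027). The same call came with no filter on low counts, with the replicate block and with only the compared groups. Hif1a in set 519 KO was called lower with DESeq2 (-0.20, adjusted p = 0.016) and with its size factors. The 19 calls of set 519 KO came to 12 without its 1-month replicate 3 and likewise without its 1-month replicate 4. All 11 osteoclast maturation markers were higher at 6 months in either KO set, and 3 of 10 macrophage markers were lower and 2 higher in set 519 KO and 10 of 10 lower in unprefixed KO. Their part was not tested.

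The difference between the age changes of unprefixed KO and unprefixed WT was tested directly. The interaction, from 1 to 6 months in KO minus that in WT, passed for 17 of 34 genes, 8 positive and 9 negative, against 27.1% and 21.6% of all genes. All 6 hypoxia genes that passed were negative, with Egln3 at -2.47 ± 0.49 (-1.77 without WT replicate 2 of 6 months), Vegfa at -1.40 ± 0.16, P4ha2 at -1.15 ± 0.15, Bnip3l at -0.96 ± 0.07, Bnip3 at -0.80 ± 0.20 and Pdk1 at -0.59 ± 0.08. Slc16a3 was the most positive at 1.10 ± 0.13, followed by Slc2a3 at 0.66 ± 0.23, whose call was lost without WT replicate 3 of either age (adjusted p up to 0.064), Slc2a1 at 0.50 and Eno1 at 0.46, while Hk2 was at -0.59 ± 0.14. In the same interaction 8 of 10 stromal markers were negative and none positive (median -1.49), 6 of 10 macrophage markers were positive and 2 negative, and 3 of 11 osteoclast maturation markers were positive and 5 negative. Their part was not tested, and neither set 519 KO nor set D1 was put through this interaction. All 6 hypoxia genes were higher in set D1 of 1 month than in WT of 6 months, with Vegfa at 124 CPM and Bnip3 at 128 CPM in set D1. With set D1 as the 1-month group, the WT change in these genes would be a fall.

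**Figure D5:**
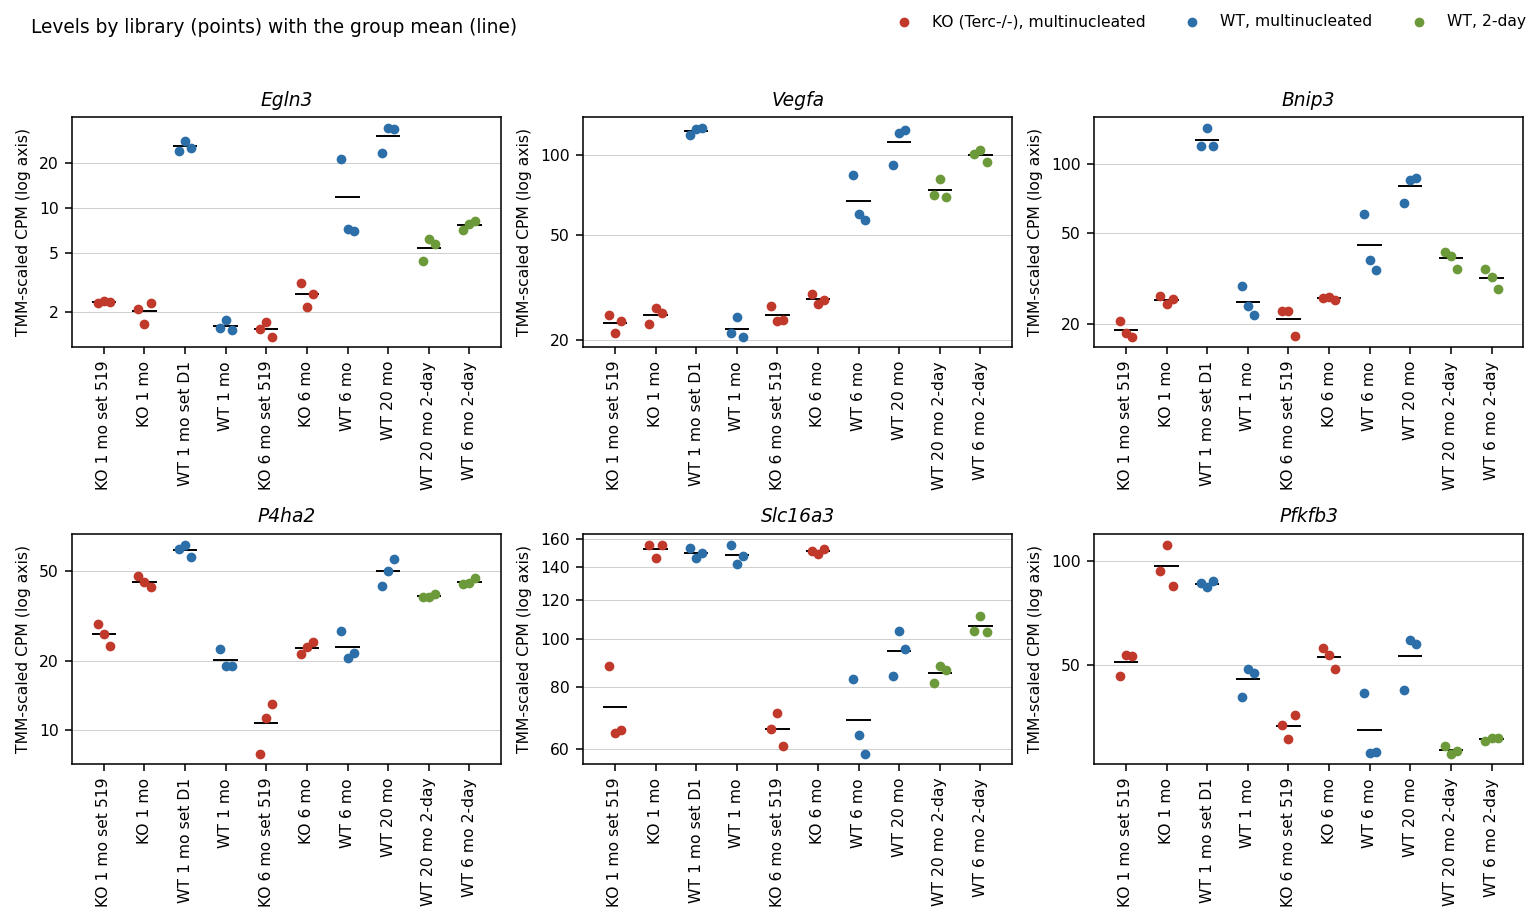
Level of Egln3, Vegfa, Bnip3, P4ha2, Slc16a3 and Pfkfb3 in each of the 30 libraries, in TMM-scaled CPM on log axes, with points for libraries and lines for group means. Egln3 lies between 1.37 and 3.13 CPM in all 12 KO libraries and between 23.1 and 34.2 CPM in WT of 20 months, an age without KO. The libraries of unprefixed WT of 1 month lie within the KO range.

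Counts per kilobase of exon show which isoform carried each step. Hk3, a myeloid hexokinase outside the 34 genes, held 80.1% ± 0.51 of hexokinase RNA in unprefixed KO of 1 month and 44.1% ± 3.0 in WT of 20 months (SD, n = 3 each), its highest and lowest group, and Hk2 held 6.0% to 22.7%. Aldoa carried at least 96.1% of aldolase and Eno1 at least 99.1% of enolase in every group, so Aldoc and Eno2, which rose in KO at 6 months, are minor isoforms here.

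For lactate dehydrogenase, Ldhb, whose subunit favours making pyruvate, held 17.2% ± 0.38 in set D1 and 0.963% ± 0.065 in unprefixed WT of 1 month. At 6 months it held 12.5% ± 0.62 in set 519 KO and 0.898% ± 0.10 in unprefixed KO, against 11.4% ± 1.4 in WT. Pdk4, another kinase of pyruvate dehydrogenase, made up 14.7% ± 0.54 of that family at 20 months and 28.7% ± 3.7 at 6 months in cultures of 2 days, and no more than 4.76% in any multinucleated group. Egln3 made up 27.3% ± 3.4 of the EGLN family in WT of 20 months and 1.68% ± 0.18 in unprefixed WT of 1 month.

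Neighbouring genes outside the 34 were counted by list. Of 30 other HIF pathway and target genes tested, 15 were higher and 1 lower at 20 than at 6 months in multinucleated WT, led by Stc2, a secreted stanniocalcin (2.84 ± 0.45), and Adm, the vasodilator adrenomedullin (1.20 ± 0.26), with the lipid-droplet gene Plin2 lower (-0.25 ± 0.06). In cultures of 2 days, 4 were higher and 11 lower. Between set 519 KO and WT at 6 months, 10 were higher and 12 lower, and between unprefixed KO and WT 8 were higher and 16 lower, so the one-way change of the 13 hypoxia genes in set 519 was not seen across that longer list.

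The list of 17 other glycolysis genes gave 1 higher and 2 lower at 20 months in multinucleated WT. In KO against WT at 6 months it gave 6 higher and 5 lower in set 519 and 5 higher and 6 lower in unprefixed KO, with the glucose transporter Slc2a6 the most raised in both, at 2.26 ± 0.12 and 2.45 ± 0.11. Of 7 pentose phosphate genes, 5 were higher in set 519 KO and 7 in unprefixed KO, led in both by Pgls, and none was lower. Of 12 genes for the entry of pyruvate into mitochondria, 3 were higher and 6 lower in set 519 KO, and 1 was higher and 10 lower in unprefixed KO.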

How the data were processed

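The deposited values are whole-number counts of reads per gene, 1 file per library. Per the file headers, the authors made these counts with featureCounts 1.6.0 from STAR alignments and the Ensembl 88 annotation of GRCm38, while the submitters' processing notes name HTSeq and mm10. No option for strand or reads with several matches is recorded. Of 50686 genes, 50376 matched a symbol in the reference tables. Of the 34 genes, 13 share exon bases with another gene, 4 of them more than 10% (Ankrd37, Bnip3, Pkm and Gpi1), and named near copies held at most 0.593% of a member's counts.

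Counts were tested with edgeR 4.0.16 in R 4.3.3 (TMM scaling, filterByExpr, quasi-likelihood test, 1 coefficient per group over 30 libraries). This kept 15310 genes and removed 35376, with a common biological coefficient of variation of 0.061. Benjamini-Hochberg adjustment ran over the genes kept within each comparison, at a threshold of 0.05. Errors of log2 fold changes are standard errors from the F statistic, and ± beside CPM is the SD. The limit for Terc rests on 3 counts over the KO libraries and covers counting error only.

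The members and all lists (other glycolysis, HIF, pentose phosphate and pyruvate entry genes, and osteoclast, macrophage, stromal, neutrophil, erythroid, lymphoid and endothelial markers) were chosen with earlier results of these data known. The genes named in a comparison are the 5 with the largest called change in each arm among those averaging at least 5 CPM in a compared group, plus Hk2, Pfkfb3, Slc2a1, Ldha, Pkm, Hif1a, Egln3, Vegfa, Bnip3 and Pdk1. Others named beside them were chosen after their values were seen.

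Replicates differed by more than sampling noise in each of 30 pairs (chi-square per degree of freedom 1.28 to 22.3, genes with at least 50 counts), so no library was counted as a repeat. Alternatives were DESeq2 1.42.0, its size factors, no filter on low counts, the replicate number as a block, only the compared groups, leaving out each library and, chosen after seeing the data, only the unprefixed libraries.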

Additional observations from a re-analysis of the deposited data

Results flagged for a closer look

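For 2 patterns a test of the difference between effects passed, and groups of 3 libraries were not searched for outlying samples. The change from 1 to 6 months in unprefixed KO minus that in unprefixed WT passed for 17 of the 34 genes, 8 positive and 9 negative. Over all genes, 27.1% were positive and 21.6% negative, so the count was near the share of all genes. Set D1 was not used as the 1-month WT. Among the genes named, the log2 difference was 1.10 for Slc16a3, 0.66 for Slc2a3, 0.50 for Slc2a1 and 0.46 for Eno1. It was -2.47 for Egln3, -1.40 for Vegfa, -1.15 for P4ha2, -0.96 for Bnip3l, -0.80 for Bnip3 and -0.59 for Hk2.

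The change from 2 days to multinucleated cultures at 20 months minus that at 6 months passed for 21 of the 34 genes, all positive. Over all genes, 7.52% were positive and 4.86% negative in this difference. In the hypoxia arm it was 1.87 for Egln3, 1.31 for P4ha2, 1.19 for Vegfa, 0.58 for Bnip3 and 0.49 for Ndrg1, and the calls of Bnip3 and Ndrg1 were lost without some single libraries (adjusted p up to 0.16 and 0.17). In the glycolysis arm it was 0.83 for Pfkfb3, 0.78 for Slc16a3, 0.77 for Pfkl, 0.57 for Gpi1 and 0.57 for Pgk1.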

How the results depend on the processing

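Of the recomputed counts of called genes, 227 stayed within 1.5 times the reported count and 5 did not. The 5 belong to 20 against 6 months in cultures of 2 days (12 called, 19 with only the compared groups) and 6 against 1 month in set 519 KO (19 called). Without 1 library at a time these ranged over 6 to 11 and 12 to 22. Over the other comparisons the ranges were 19 to 25 for 20 against 6 months in multinucleated WT, 22 to 25 and 23 to 26 for set 519 and unprefixed KO against WT at 6 months, 16 to 20 for the age interaction and 18 to 26 for the stage interaction. Leaving out 1 library was followed gene by gene for the named genes, which hold 248 calls. Among these a called value changed sign once, Egln3 at 6 months in multinucleated against 2-day cultures (-0.11 to 0.87 without 1 library), and 26 of the 248 calls were lost without some 1 library.

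The other values that changed sign had not passed. Without 1 library they ranged over -0.0623 to 0.16 for Bnip3 in unprefixed KO against WT at 1 month, -0.0049 to 0.15 for Vegfa in set 519 KO against WT at 1 month, -0.0427 to 0.26 for Pfkfb3 in set 519 KO against WT at 6 months, -0.16 to 0.0034 for Slc2a1 in set 519 KO against set D1, -0.13 to 0.19 for Pfkfb3 in multinucleated against 2-day cultures at 6 months, -0.0922 to 0.0087 for Ldha at 20 against 1 month, -0.0388 to 0.0235 for Hk2 at 20 against 6 months in cultures of 2 days, -0.0179 to 0.0487 for Bnip3 with age in unprefixed KO and -0.011 to 0.17 for Pkm with age in set 519 KO. Hk2 was 0.0101 and Ldha in unprefixed KO against set D1 -0.0047 with only the compared groups. Bnip3 with age in unprefixed KO was -0.001 with DESeq2's size factors and -0.002 with only the unprefixed libraries, Pkm in set 519 KO was -0.0057 with those size factors and -0.0047 with DESeq2, and Pdk1 in set 519 against unprefixed KO at 1 month was -0.0002 with no filter. The cause was not tested.

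The replicate numbers are only shared: of 36 correlations of deviations, 1 was over 0.1 (-0.152 to 0.261). With the replicate number as a block, 23 genes were called at 20 against 6 months in multinucleated WT, 24 in unprefixed KO against WT at 6 months, 17 and 21 in the age and stage interactions, and 10 at 20 against 6 months in cultures of 2 days. Bnip3 in unprefixed KO at 1 month was -0.0313, Vegfa in set 519 KO at 1 month -0.0067 and Hk2 in cultures of 2 days 0.0143 with the block. Set 519 was the shallowest set, which limits its low genes such as Egln3.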
